A study of Homo sapiens with 2 samples.

Results

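Expression of the HOXB cluster genes was compared between HCT116 cells that stably overexpress HOXA5 short RNA and mock transfectants. The cluster comprises 10 genes on chromosome 17, HOXB1 to HOXB9 and HOXB13. Their probes were chosen by the RefSeq transcript accession that the array design gives each non-control probe. This selected 11 probes of 50599 and 10 genes of the 21614 genes that could be named. HOXB2 had 2 probes and each of the other 9 genes had 1 probe, all printed in a single spot. HCT116 cells are a widely used line from a human colon carcinoma. The mock group (genotype label control) and the HOXA5 short group (genotype label overexpression of HOXA5 short RNA) both carried a pEB vector and were selected with blasticidin for 2 weeks. HOXA5 short RNA is a non-coding transcript of the HOXA6-HOXA5 locus that lacks the first exon of HOXA5. Each group had 1 one-color Cy3 array, made from 400 ng of total RNA. Whether the transfected cells were a pool or 1 clone is not given in the sources used here. There were no replicate arrays, so the differences below compare these arrays only, none was tested, and the precision is limited by the number of arrays.

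HOX genes encode homeodomain transcription factors that give cells their position along the body axis. Within each cluster, genes at the 3′ end are switched on earlier and more anteriorly in the embryo than genes at the 5′ end, an arrangement known as collinearity. HOX proteins bind DNA together with the TALE cofactors of the PBX, MEIS and PKNOX families, and their genes respond to retinoic acid and, in the trunk and gut, to CDX factors. Many HOX genes stay active in adult colon epithelium and in colon cancer cells.

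On these arrays, 9 of the 10 HOXB genes were detected in both groups and HOXB1 in neither. None of the 9 differed 2-fold between HOXA5 short and mock cells (0 of 9). The largest difference was that of HOXB7, whose scaled signal was 1.33 times as high on the HOXA5 short array. That difference was smaller than the spread between copies of probes of that brightness. It turned to -0.06 on the log2 scale with normexp, another background correction, run on median signals with an added offset of 50. These are bulk RNA samples, in which fewer expressing cells and less RNA per cell cannot be told apart. Detected means that the scanner software flagged the spot as well above background. Over all named genes, 55.5% had such a probe on both arrays, and 0.900% of the 11996 genes compared differed at least 2-fold.

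HOXB1 is shown as sequence because it was the only member with a promoter window to show. Of the 10 genes, 1 matched the RefSeq promoter windows by symbol. The window runs from 250 bases before the start site to 50 after it, on the minus strand of GRCh38.p14 at chr17:48530962-48531261. It is printed 5′ to 3′ with a match to TGATNNAT in capitals. This motif is a form of the joint binding site of PBX and HOX proteins.
HOXB1: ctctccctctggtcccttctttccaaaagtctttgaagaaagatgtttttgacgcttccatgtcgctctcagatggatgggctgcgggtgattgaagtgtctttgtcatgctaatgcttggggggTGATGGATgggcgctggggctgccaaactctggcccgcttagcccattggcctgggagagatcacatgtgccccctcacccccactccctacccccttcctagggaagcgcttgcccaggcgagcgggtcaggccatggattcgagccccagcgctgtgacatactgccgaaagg
Both strands were searched. The match, TGATGGAT, lies from -125 to -118 relative to the start site, and 7.40% of 35116 promoter windows of the same length hold the motif at least once. The cluster also encodes microRNAs, of which miR-10a lies between HOXB4 and HOXB5 and miR-196a-1 between HOXB9 and HOXB13. Their precursors had no RefSeq-named probe. The 5p mature forms (RefSeq, GRCh38.p14) are given to show this unmeasured part of the cluster, with the seed, bases 2 to 8, in capitals.
hsa-miR-10a-5p: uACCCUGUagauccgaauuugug
hsa-miR-196a-5p: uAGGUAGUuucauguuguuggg
The seeds differ, so these microRNAs do not form 1 seed family.

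Signals are given as processed signal, the spot brightness after the background correction of the scanner software, followed after ± by the error that the software assigns to that spot. The HOXA5 short array was brighter as a whole, with a 75th percentile of 44.0 against 35.7 on the mock array. Differences are therefore log2 differences, HOXA5 short minus mock, after each array was scaled to its own 75th percentile. The measurement spread is the SD of such differences over copies of probes printed in several spots. It was 0.63 for signals between 5 and 15, 0.34 up to 50, 0.27 up to 200 and 0.23 beyond. It holds no spread between cultures. After scaling, all 7 detected RNA spike-ins, which are added with the labeling reagents, were dimmer on the HOXA5 short array. Their median log2 difference was -0.51, but they ran from -0.67 to -0.04. Scaling to these spike-ins was run as an alternative. It adds 0.51 to every difference, so that each small negative value or list median below turns positive with it. HOXA5, the check of the labels, gave 39.4 ± 4.32 in mock and 346 ± 34.6 in HOXA5 short cells, a log2 difference of 2.83. Of the epithelial markers, EPCAM, CDH1, KRT8, KRT18 and KRT19 were detected on both arrays, whereas KRT20, VIL1, CDH17 and LGALS4, which mark differentiated intestinal cells, were detected on neither. COL1A1 was the 1 fibroblast marker of 5 detected on both arrays. No endothelial marker was detected (0 of 3), and of 4 immune markers CD14 was detected on the HOXA5 short array only. Of all 21614 named genes, 410 were detected on that array only and 167 on the mock array only.

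Of the anterior genes HOXB1, HOXB2 and HOXB3, 2 of 3 were detected on both arrays. HOXB1 (NM_002144) specifies the fourth segment of the hindbrain. Its signal was 1.74 ± 1.75 in mock and 1.92 ± 1.93 in HOXA5 short cells. These values lie at the level of the 308 negative-control spots, with medians of 1.70 in mock and 1.85 in HOXA5 short cells. HOXB1 RNA was not detectable at this sensitivity, and no difference is given for it.

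HOXB2 (NM_002145), which patterns the hindbrain, was measured by a pair of probes for the same transcript, and they disagreed in sign. The first gave 14.9 ± 2.24 in mock and 14.4 ± 2.31 in HOXA5 short cells, a log2 difference of -0.36. The second gave 13.8 ± 2.06 and 18.3 ± 2.48, a log2 difference of 0.11. The probes thus lay 0.46 apart. This gap is below the spread of single spots at the brightness of the first probe (0.63) and above that of the second (0.34). The sign of the first turned with scaling to the spike-ins (0.16) and that of the second with normexp background correction (-0.02). The mean for HOXB2 was -0.12, which turned positive with the brighter probe alone (0.11) and with scaling to the spike-ins (0.39).

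HOXB3 (NM_002146), an anterior gene active in the hindbrain and in blood progenitors, gave 10.4 ± 2.17 in mock and 10.5 ± 2.29 in HOXA5 short cells. The signals were nearly equal before scaling. The scaled log2 difference was -0.29, and it turned to 0.22 with scaling to the spike-ins. It was smaller than the spread of 0.63 at this brightness. The median difference of the 14 well-measured spots around the HOXB3 spot was itself -0.17, and after subtraction of that local median HOXB3 stood at -0.12.

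**Figure D1:**
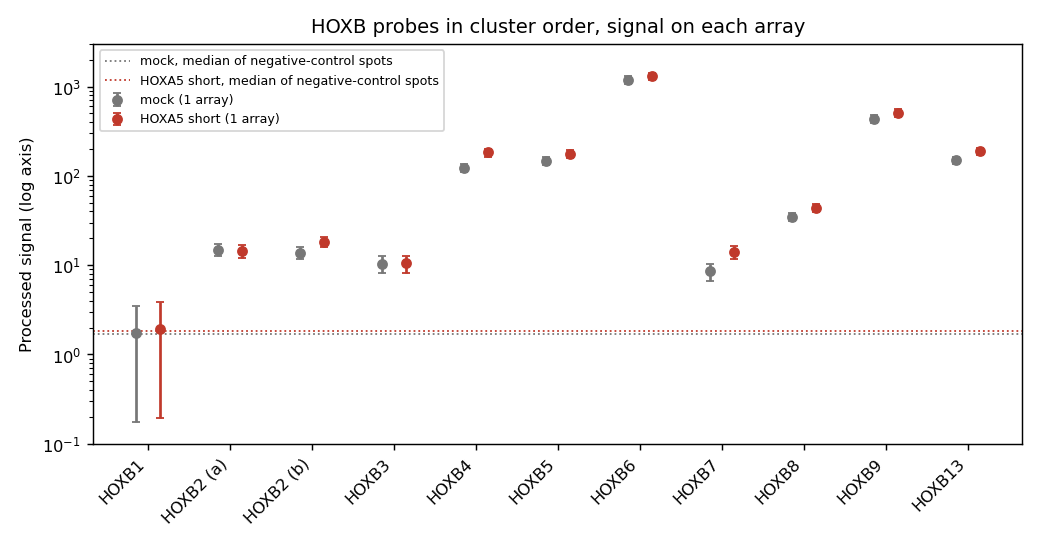
Processed signal (vertical log axis) of the 11 HOXB probes in cluster order in mock and HOXA5 short cells (1 array each). Bars are the error given by the scanner software, and the lower bars of HOXB1, whose error is as large as its signal, are shortened to fit the log axis. HOXB1 lies on the dotted medians of the negative-control spots, and the other 10 probes lie above them on both arrays.

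The central genes HOXB4 to HOXB8 were all detected on both arrays (5 of 5). HOXB4 (NM_024015), best known for expanding blood stem cells, gave 123 ± 12.4 in mock and 183 ± 18.4 in HOXA5 short cells. Its log2 difference was 0.27, equal to the spread of single spots at this brightness (0.27). It was positive under all 10 alternative settings, from 0.25 to 0.78. These settings reprocess the same spots. Those that change only the filter or the choice of probe repeat 0.27 by construction, because HOXB4 has 1 probe. Among the members with signals above 50 on both arrays it had the largest difference.

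HOXB5 (NM_002147) acts in the neural crest that forms the enteric nervous system. Its signal was 148 ± 14.9 in mock and 178 ± 17.9 in HOXA5 short cells. The log2 difference of -0.03 was far below the spread and had no settled sign, being 0.06 with scaling to the median, 0.05 with normexp background correction, 0.19 after subtraction of the local median and 0.48 with scaling to the spike-ins.

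HOXB6 (NM_018952), a trunk gene that is also active in blood precursors, gave 1190.1 ± 119 in mock and 1302 ± 130.2 in HOXA5 short cells. Its log2 difference was -0.17, against a spread of 0.23. The sign turned with normexp (0.01) and with scaling to the spike-ins (0.34).

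HOXB7 (NM_004502), a trunk gene linked to tumor cell proliferation, gave 8.57 ± 1.85 in mock and 14.1 ± 2.25 in HOXA5 short cells. The mock signal was close to the lowest signal flagged as well above background on that array, 7.18. Its log2 difference of 0.42 was the largest of the cluster. It was smaller than the spread of 0.63 but larger than the combined error that the scanner software gave both spots (0.39). Normexp gave -0.06. The offset of 50 that normexp adds exceeds both HOXB7 signals. Of the 14 well-measured spots in its surroundings, 0 differed 2-fold.

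HOXB8 (NM_024016), a gene that holds myeloid progenitors in a dividing state when expressed at high levels, gave 35.0 ± 3.85 in mock and 44.2 ± 4.75 in HOXA5 short cells. The log2 difference was 0.03, against a spread of 0.34. It was positive under its 9 alternative settings, from 0.02 to 0.55, some of which repeat the value by construction, as for HOXB4.

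The posterior genes HOXB9 and HOXB13 were also detected on both arrays. HOXB9 (NM_024017), which patterns the thoracic skeleton and the mammary gland, gave 433 ± 43.3 in mock and 510.4 ± 51.1 in HOXA5 short cells. Its log2 difference was -0.07, with 0.03 after scaling to the median and 0.45 after scaling to the spike-ins. Its spot lay near the edge of the grid, and among 11 well-measured neighbors 1 differed 2-fold. For the other 10 HOXB probes no well-measured spot within 3 grid rows and 3 columns differed 2-fold.

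HOXB13 (NM_006361), which marks the prostate and the distal gut, gave 149 ± 15.02 in mock and 189 ± 18.9 in HOXA5 short cells. The log2 difference was 0.03, against a spread of 0.27. It was positive under all 10 alternative settings, from 0.02 to 0.55. As for HOXB4, settings that change only the filter or the choice of probe repeat the value by construction.

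**Figure D2:**
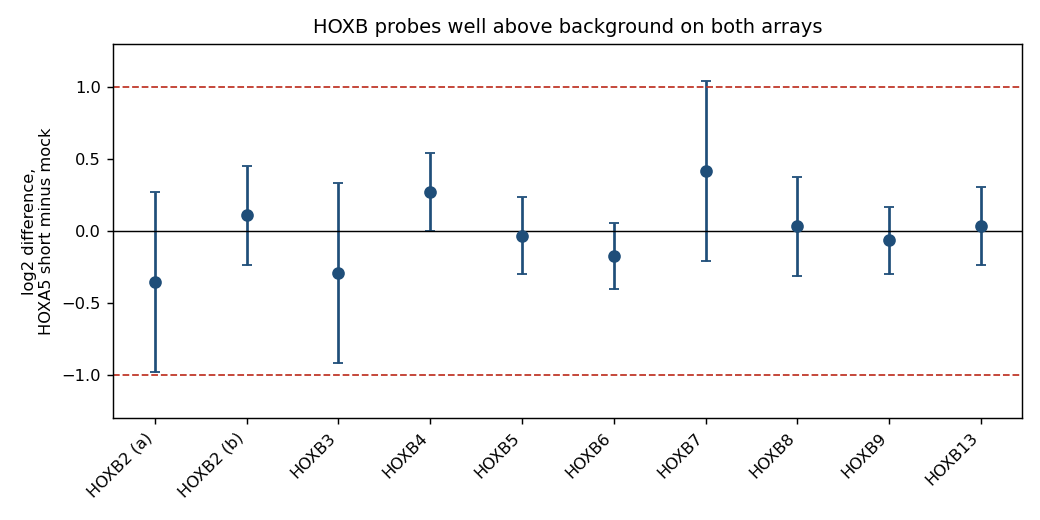
Log2 difference, HOXA5 short minus mock, of the 10 HOXB probes detected on both arrays, in cluster order; bars are the SD of single-spot differences at the brightness of each probe, and dashed lines mark 2-fold. All 10 points lie between the dashed lines, and the bars are longest for HOXB2 (a), HOXB3 and HOXB7, whose signals were below 15.

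The 9 detected genes were then described together, beside all genes compared. Their median log2 difference was -0.03, and that of all 11996 genes was -0.02. The SD over the 9 genes was 0.22, against 0.29 over all genes. Of the 9, 4 were above 0 (44.4%), and 45.5% of all genes were. A difference beyond 0.25 in either direction was found for HOXB3, HOXB4 and HOXB7 (33.3% of 9), and for 25.2% of all genes. At a threshold of 1.5-fold the HOXB count was 0, where 4.38% of all genes passed. Of the 10 probes compared, 9 differed by less than the spread of single spots at their brightness, HOXB4 being the exception by a margin beyond the second decimal, and so did 76.5% of all 17346 compared probes printed in a single spot. Of the same 10, 7 differed by less than the combined scanner error of both spots, against 66.0% of those probes. The others were HOXB4 (0.27, error 0.21), HOXB7 (0.42, error 0.39) and the first HOXB2 probe (-0.36, error 0.32).

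By position in the cluster, HOXB2 and HOXB3 had a median of -0.21, HOXB4 to HOXB8 a median of 0.03 and HOXB9 and HOXB13 a median of -0.02, where scaling to the median gave positive values for both (0.03 and 0.13). The anterior median rests on 3 dim spots and turned positive with scaling to the spike-ins, where both genes were positive. No order along the cluster was tested.

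**Figure D3:**
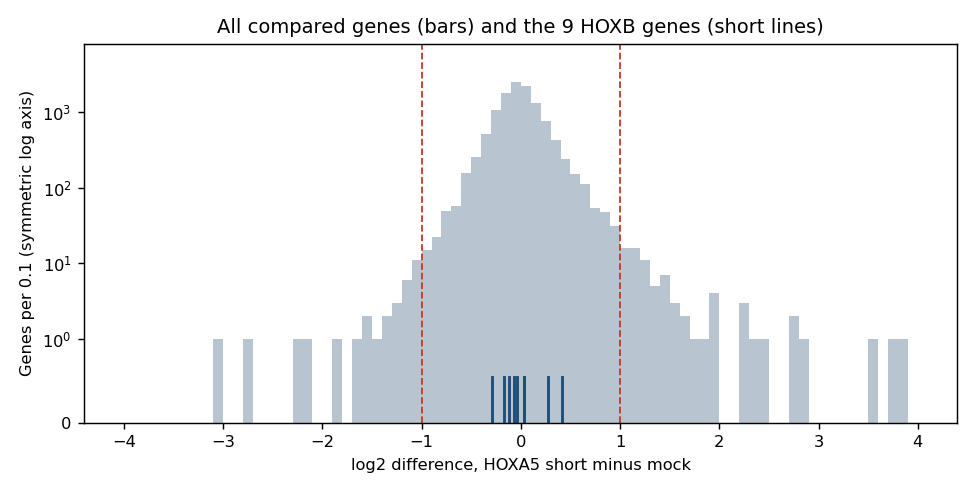
Number of genes (vertical axis, symmetric log scale) in bins of log2 difference, HOXA5 short minus mock, for the 11996 genes compared; short dark lines mark the 9 HOXB genes and dashed lines mark 2-fold. The HOXB genes lie from -0.29 to 0.42, inside the central part of the distribution.

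The other HOX clusters were set beside HOXB to show where it stood. Paralog groups are the sets of related genes at the same place in each cluster. In groups 2 to 13, detection on both arrays was found for 9 of 10 HOXA genes, 4 of 9 HOXC genes and 1 of 8 HOXD genes, against 9 of 9 HOXB genes. In group 2 HOXB2 was detected and HOXA2 was not. In groups 6 and 7 every gene was detected on both arrays, among them HOXB6 and HOXB7. In groups 4, 9 and 13 the HOXA, HOXB and HOXC genes were detected on both arrays and the HOXD gene was detected on neither. Probes differ in how well they hybridize, so these counts say which probes gave signal and do not rank the genes by RNA level.

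Of the other HOX genes, 13 were compared when HOXA5 is left out. Their median log2 difference was 0.0008 and 0 of them differed 2-fold, as for HOXB and against 0.900% of all genes. They ran from -0.34 for HOXA11 to 0.62 for HOXD8. HOXC8 and HOXD3 were well above background on the HOXA5 short array only, and no fold is given for them. Over all named genes, 410 were detected on the HOXA5 short array only and 167 on the mock array only. HOXA5 itself stood apart from its HOXB paralog, at 2.83 against -0.03 for HOXB5. The HOXA5 probe is not stated to separate HOXA5 short RNA from HOXA5 mRNA.

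**Figure D4:**
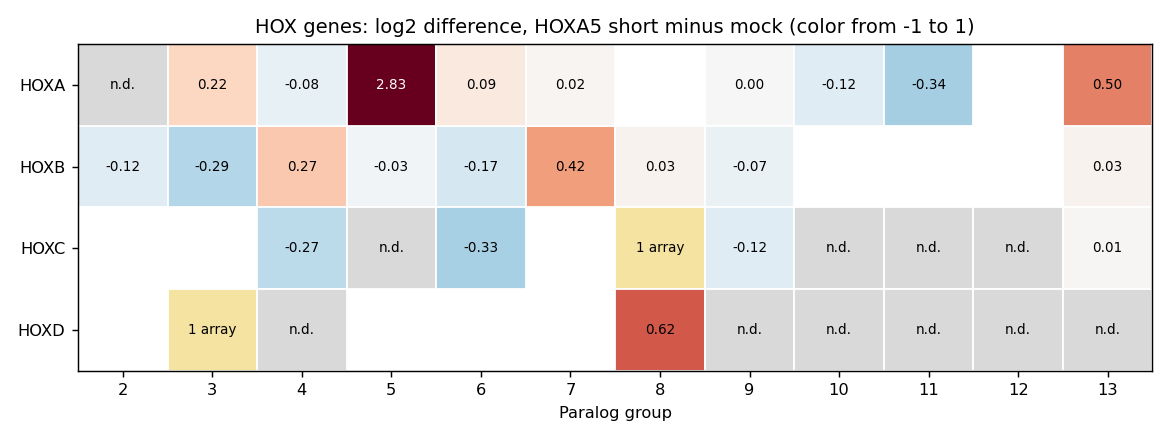
HOX genes by cluster (rows) and paralog groups 2 to 13 (columns), with the log2 difference, HOXA5 short minus mock, printed and colored where a gene was detected on both arrays; gray (n.d.) means detected on neither array, yellow means detected on the HOXA5 short array only, and white means that the human cluster has no such gene. In the HOXB row all 9 genes hold a value, between -0.29 and 0.42, and HOXA5 holds 2.83.

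Of the non-coding and PRAC genes of the HOXB cluster, HOXB-AS3, PRAC1 and PRAC2 had probes. HOXB-AS3 is transcribed antisense to HOXB5 and HOXB6. One of its probes (NR_110331) gave 11.3 ± 2.03 in mock and 15.9 ± 2.42 in HOXA5 short cells, a log2 difference of 0.19, and the other probe was well above background on neither array. PRAC2, which lies beside HOXB13, had 1 detected probe with 39.1 ± 4.21 and 52.0 ± 5.48, a log2 difference of 0.11. Both differences were below the spread of single spots at their brightness (0.63 and 0.34). PRAC1, named for its expression in prostate, rectum and colon, gave 1.55 ± 1.56 and 2.24 ± 1.72 and was not detected, although its neighbor HOXB13 was.

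The TALE cofactors were represented by 8 of 9 genes, and 5 were compared. Their median log2 difference was -0.11, against -0.02 over all genes. Of the 5, 0 reached 2-fold, against 0.900% of all genes. Values ran from -0.30 for PKNOX1 to 0.46 for PBX2. The 1 probe of PBX2 gave 12.6 ± 2.20 in mock and 21.3 ± 2.96 in HOXA5 short cells, with a spread of 0.34. PBX3 was well above background on the HOXA5 short array only, by 1 of its probes, as were 410 named genes, against 167 on the mock array only. MEIS1 and MEIS3 were detected on neither array. Of 15 caudal and retinoic acid genes, which act upstream of HOX genes, 7 were compared. Their median was -0.08, against -0.02 over all genes, and 0 of the 7 reached 2-fold, against 0.900% of all genes. Values ran from -0.29 for ALDH1A3, an enzyme that makes retinoic acid, to 0.28 for CDX1, an intestinal homeobox factor. CDX1 was compared by 1 probe, with 12.6 ± 2.29 in mock and 18.9 ± 2.78 in HOXA5 short cells, and its difference was below the spread (0.34). Its other probe was well above background on neither array. CDX2, the main intestinal CDX factor, gave 244 ± 24.5 in mock and 280.5 ± 28.1 in HOXA5 short cells, a log2 difference of -0.10. The 2 probes of the retinoic acid receptor gene RARA disagreed in sign, at 0.72 (spread 0.63) and -0.20 (spread 0.23), with a mean of 0.26. The receptor gene RARB and the degrading enzymes CYP26A1, CYP26B1 and CYP26C1 were detected on neither array.

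**Figure D5:**
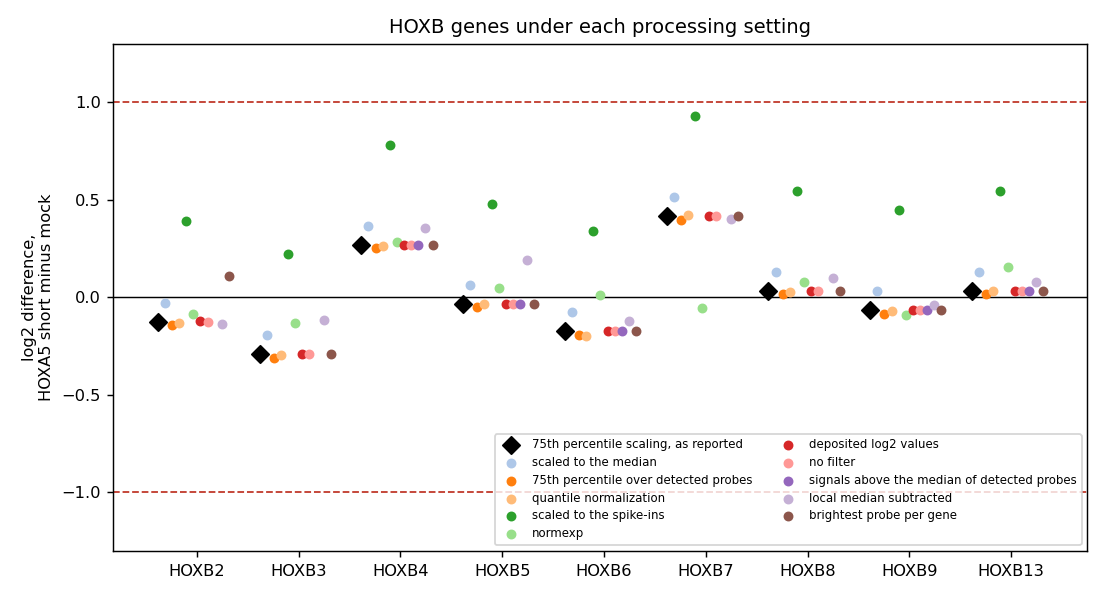
Log2 difference, HOXA5 short minus mock, of the 9 detected HOXB genes under the reported setting (black diamonds) and each alternative setting (dots), with dashed lines at 2-fold. Every point lies inside the dashed lines, scaling to the spike-ins sets every gene higher, up to 0.93 for HOXB7, and normexp sets HOXB7 at -0.06.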

How the data were processed

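RNA of HCT116 cells was hybridized to Agilent SurePrint G3 human arrays, 1 array in each of 2 groups, and groups were taken from the genotype label. Per the file headers, Feature Extraction 11.5.1.1 quantified the spots, and the deposited scanner output gives background-corrected intensity on a linear scale with an error and flags. A table of log2 values made by the authors in GeneSpring was used as an alternative; it is centered per probe and filtered on flags and on the lowest 20% of signals, and its scaling is not given in the sources used here.

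Flagged outlier spots were left out, spots of a probe were averaged as log2 processed signal, and the 75th percentile over all non-control probes of each array was subtracted. A probe was compared when well above background on both arrays (17940 probes), and a gene was the mean of its compared probes. A difference was called at 2-fold. The spread came from probes with at least 5 usable spots, 902 probes in all, keeping spots flagged only as unlike their copies. RefSeq records of GRCh38.p14 named 30004 probes (59.3%) by accession without version and gave the gene order. The arrays were annotated on hg19, so coordinates are printed for RefSeq sequences only. All 10 HOXB genes and the members of each list with the lowest and highest difference are named; further genes of the lists were named after their values were seen. The lists were HOXB, other HOX, HOXB non-coding and PRAC, HOXB flanking, TALE cofactor, caudal and retinoic acid genes, and cell type markers. Members and lists were chosen with earlier results of these data known. Normexp used limma 3.58.1 in R 4.3.3 on median foreground and background signals (offset 50). Calculations used Python 3.11.15 with numpy 2.4.6 and pandas 2.3.3 and were tested on simulated data. The differences put into the simulated data were larger than 2-fold, beyond the range of the HOXB genes.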

Additional observations from a re-analysis of the deposited data

How the results depend on the processing

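No paired analysis was possible because each group has 1 array and no result comes from a test. Detection of 9 HOXB genes was the same when a signal of at least 3 times its error was required on both arrays (9) and in the deposited table (9). In every setting run, 0 HOXB genes reached 2-fold, and filters leave the values of genes with 1 probe unchanged by construction. With the reported scaling 0 reached 1.5-fold, which fixes the 3-fold count at 0. With scaling to the spike-ins, HOXB4 (0.78) and HOXB7 (0.93) lay beyond 1.5-fold. The median of the HOXB genes ran from -0.05 to 0.08 in the settings other than scaling to the spike-ins, which shifted all genes by 0.51 and gave 0.48, and its distance from the median of all genes was at most 0.07 in each setting. Scaling to the median shifted genes by 0.10. Signals above the median of detected probes left 5 HOXB genes to compare.

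The count of all genes at least 2-fold different was 108 (77 higher and 31 lower, 71.3% higher). It was 128 with scaling to the median (84.4% higher), 509 with scaling to the spike-ins (98.4% higher), 45 with normexp (82.2% higher), 324 in the deposited log2 values, 1010 without a filter (44.2% higher), 49 with signals above the median, 525 at 1.5-fold and 27 at 3-fold. Filters and thresholds change this count by construction, and so do the scalings, which add the same amount to every gene. The deposited log2 values covered 12577 genes. For these values and for normexp the cause was not tested. Low signal limits HOXB2, HOXB3 and HOXB7.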

Other observations

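Genes that flank the HOXB cluster on chromosome 17 were described as neighbors of the members. Of 13 such genes, 9 were compared, with a median log2 difference of 0.02, and 0 of the 9 differed 2-fold against 0.900% of all genes. The values ran from -0.26 for CDK5RAP3 to 0.62 for CALCOCO2, an autophagy receptor gene measured by 1 probe with 22.7 ± 3.01 in mock and 43.3 ± 4.86 in HOXA5 short cells. The scaffold gene SKAP1, next to HOXB1, gave 209 ± 21.0 and 262 ± 26.3, a log2 difference of 0.02, and was thus detected beside HOXB1, which was not. On the other flank TTLL6, next to HOXB13, was well above background on neither array, by both of its probes. CBX1, which encodes a heterochromatin protein and was picked here after its values were seen, had 3 probes. Their log2 differences were -0.13, -0.03 and 0.90. The third was larger than the spread at its brightness (0.23). The median difference of the 13 well-measured spots around the third was itself 0.43.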
